A study of Mus musculus with 8 samples.

Results

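The experiment set 2 libraries of mouse embryonic stem cells (ESCs) depleted of Ubn1 against 2 control libraries, which are 4 of the 8 RNA-seq libraries of the series. Every gene with enough counts in these 4 libraries was kept, which left 18373 of the 55418 genes listed, and none was chosen for how it changed. E14 ESCs, labelled as strain 12910la and grown on gelatin with serum and LIF, received a plasmid that expressed an shRNA against Ubn1 or, in the control group, the control shRNA, which the study directs at luciferase while the labels call these cells wild type. All groups went through transfection and 3 days of puromycin, so the controls carry that treatment too, and RNA came from the whole surviving population, in which fewer cells that express a gene and less RNA per cell cannot be told apart. The other 4 libraries, 2 from Ubn2-depleted and 2 from Hira-depleted cells of the same kind, are used only where a difference from Ubn1 depletion was tested. The sources used here do not say that the 2 libraries of a group came from separate cultures, so the p-values measure the spread between these libraries, which may be technical.

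Ubn1 encodes ubinuclein-1, a subunit of the HIRA complex. This histone chaperone places the histone variant H3.3 into chromatin outside DNA replication. HIRA is its scaffold, UBN1 or its paralog UBN2 binds the H3.3-H4 dimer, CABIN1 is a further subunit, and ASF1A hands the histones over. In ESCs, H3.3 is known to lie at active genes, at regulatory elements and at silenced repeats, and the comparison asked which transcripts depend on the Ubn1 subunit.

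Ubn1 transcripts fell in both depleted libraries but did not disappear, and no other gene of the complex was called. Ubn1 (GRCm38 chromosome 16, 5050057 to 5086289, plus strand, protein coding) was at 52.1 and 43.1 CPM, the usual count scaled to the library's total, here with TMM factors, in the control libraries and at 23.4 and 23.1 CPM in the Ubn1_KD libraries (log2 fold change -1.03, SE 0.12, adjusted p = 4.02e-07, edgeR's quasi-likelihood test, adjusted over all genes tested by the Benjamini-Hochberg method). The groups did not overlap, and the fitted change was 2.04-fold. Of the 17 genes of the HIRA complex and other H3.3 chaperones, all tested, Ubn1 alone passed the thresholds used throughout, an adjusted p under 0.05 and a change over 1.5-fold. Its paralog Ubn2 was at 49.3 and 50.5 CPM in controls and 56.03 and 49.7 CPM after Ubn1 depletion (log2 fold change 0.08, adjusted p = 0.694). Hira was at 87.96 and 95.3 CPM in controls against 104 and 115 CPM after depletion (log2 fold change 0.25, adjusted p = 0.0982), both depleted libraries lying above both controls. The annotated gene Gm28539 overlaps exons of Hira on the same strand. Cabin1 had a log2 fold change of 0.16 and Asf1a of 0.26, with adjusted p = 0.3301 and 0.201. The H3.3 genes H3f3a and H3f3b had log2 fold changes of -0.13 and 0.07, and the alternative H3.3 chaperone genes Daxx and Atrx of 0.14 and 0.04, none past the threshold.

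Transcripts that define ESCs stayed abundant. All 10 defining markers were tested, and none was called. Pou5f1, the core pluripotency factor Oct4, was at 1149.5 and 1226 CPM in controls and 1064 and 1002 CPM after depletion, Nanog at 464 and 414 CPM in controls against 499 and 467 CPM after depletion, and Sox2 at 346 and 385 CPM in controls against 399.5 and 384 CPM after depletion. Of the 10, 4 had an adjusted p under 0.05 in the lower direction without reaching 1.5-fold, among them Dppa5a (log2 fold change -0.54, SE 0.09, adjusted p = 0.000209), which has close copies elsewhere in the genome, and the Nodal coreceptor gene Tdgf1 (log2 fold change -0.40, SE 0.09, adjusted p = 0.00463). At an unadjusted p under 0.05, 0 markers were higher and 6 lower, and DESeq2 called 0. Fibroblast markers summed to 38.9 and 42.1 CPM in controls and 34.7 and 44.3 CPM after depletion, and blood and endothelial markers to 132 and 127 against 122 and 125 CPM. edgeR called 0 of the 3 and 5 of these markers that could be tested, DESeq2 called 0, and at an unadjusted p under 0.05 only the endothelial receptor gene Tek was higher (log2 fold change 0.48, adjusted p = 0.0303), under the fold threshold, and 0 were lower. The hemoglobin genes and the leukocyte marker Ptprc were too low to be tested.

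Total counts on genes lay between 21174666 and 32706053 in the 4 libraries, at which 3 counts correspond to 0.0917 to 0.142 CPM, a limit that covers counting error only. The 10 most abundant genes took 5.69% to 6.07% of each library. Controls differed from each other in transcripts of ribosomal RNA (rRNA) type. CT010467.1, annotated as rRNA, was at 1903 and 1215 CPM in the 2 controls and 796 and 857 CPM after Ubn1 depletion, and the overlapping genes Gm42418 and AY036118 had the same order. Gm23935 was at 437 and 151 CPM in controls against 126 and 75.6 CPM after depletion, and the gene of the mitochondrial leucyl-tRNA synthetase, Lars2, at 418 and 188 CPM in controls against 128 and 165 CPM after depletion. All 5 were called lower in edgeR, but the first control lay far above the second, and DESeq2 called 1 of them. Without Control replicate 1 the log2 fold changes of CT010467.1 and Gm42418 were -0.56 and -0.57, and neither was called. Their part in the other changes was not tested. The 13 mitochondrially encoded genes were all lower with a median log2 fold change of -0.20, and edgeR and DESeq2 called 0 of them, with 0 higher and 3 lower at an unadjusted p under 0.05. In only 2 of the 13 did both depleted libraries lie under both controls. Summed over the 13 genes, the level was 11570 and 10740 CPM in controls against 11020 and 8014 CPM after depletion. The first depleted library thus lay between the controls. Without Ubn1_KD replicate 1, 5 of the 13 were called lower. Of the 82 cytosolic ribosomal protein genes, 73 were lower with a median of -0.15 and both tools called 0, with 1 higher and 34 lower at an unadjusted p under 0.05.

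Ubn1 depletion raised 282 genes and lowered 286. These are 1.53% and 1.56% of the 18373 genes tested, and by the same rule 9.59% of genes were upregulated and 8.75% downregulated after Ubn2 depletion and 10.8% and 5.4% after Hira depletion, all against the same control libraries. Changes were modest in size, with a median fold of 1.79 for upregulated and 1.81 for downregulated genes. A change over 2-fold was seen in 108 upregulated and 100 downregulated genes, and one over 4-fold in 20 and 19. The called genes had a median level of 7.13 and 7.09 CPM, against 14.2 CPM over all genes tested. In each of them both depleted libraries lay outside both controls on the same side, which over all genes tested held for 26.4% above and 24.9% below. DESeq2's Wald test, the tool of the study, called 159 and 136 of the same genes and gave no adjusted p for 65 and 66 others. The counts leaned on the controls: without Control replicate 1 they were 172 and 178 (145 and 157 of the same genes), and without Control replicate 2 they were 230 and 183 (157 and 137 of the same genes). Protein-coding genes made up 234 of the upregulated and 218 of the downregulated genes, which is 1.64% and 1.53% of the 14291 tested. Antisense genes made up 18 and 21, which is 1.58% and 1.84% of the 1139 tested. Both classes were thus called near the share over all genes.

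**Figure D1:**
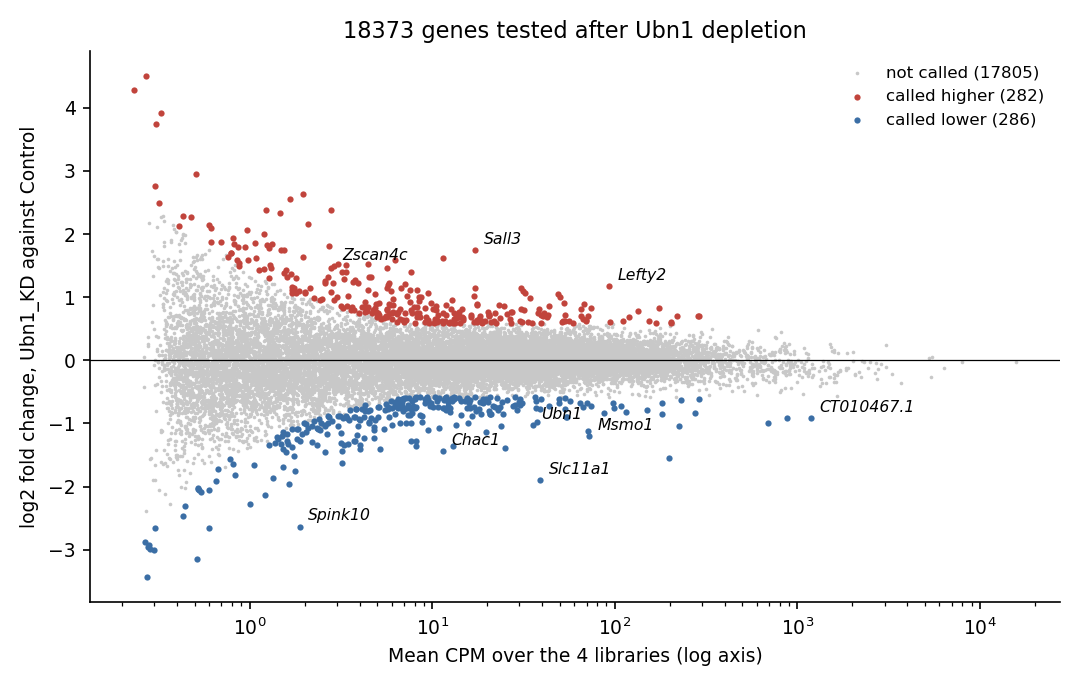
Each point is 1 of 18373 tested genes, with the mean CPM over the 4 libraries on a log axis and the log2 fold change of Ubn1_KD against Control on the vertical axis. The 282 genes called higher are red and the 286 called lower are blue, and they thin out toward high CPM, where changes were small.

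The zinc finger gene Sall3, a member of the spalt family, had the smallest adjusted p among upregulated genes. Sall3 (chromosome 18, 80966376 to 80986771) was at 7.37 and 8.35 CPM in controls and 27.5 and 25.7 CPM after Ubn1 depletion (log2 fold change 1.75, SE 0.14, adjusted p = 9.55e-10), a 3.36-fold rise with both depleted libraries far above both controls. Ptprv, annotated as a processed transcript of a receptor tyrosine phosphatase gene, was at 20.1 and 17.9 CPM in controls against 40.4 and 43.8 CPM after depletion (log2 fold change 1.15, SE 0.12, adjusted p = 7.62e-08). Ankrd45, an ankyrin repeat gene, was at 6.03 and 5.25 CPM in controls against 20.3 and 14.2 CPM after depletion (log2 fold change 1.62, SE 0.18, adjusted p = 3.85e-07). Aqp3, an aquaglyceroporin gene, rose from 38.8 and 28.4 CPM to 65.1 and 68.3 CPM (log2 fold change 1.00, SE 0.12, adjusted p = 7.86e-07). Snx20, a sorting nexin gene, was low in controls at 0.6704 and 1.07 CPM and reached 4.49 and 4.89 CPM (log2 fold change 2.38, SE 0.31, adjusted p = 3.83e-06). Nynrin, a gene with a retroviral integrase-like domain, was at 27.6 and 35.7 CPM in controls against 64.9 and 67.4 CPM after depletion (log2 fold change 1.06, SE 0.11, adjusted p = 2.22e-07). The exons of the antisense gene Gm26751 lie wholly within those of Nynrin, and the gene showed the same pattern, from 17.3 and 22.7 CPM to 42.1 and 44.2 CPM. The counting is not stated to use strand, so the reads of these 2 genes cannot be told apart.

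Among the called genes were 4 known from blood vessel cells, put together because they had risen, so that their shared direction is no result. The fixed list of blood and endothelial markers had 2 of its 5 tested members higher, 3 lower and 0 called, with a median log2 fold change of -0.06 (Pecam1 -0.15, Tek 0.48). Eng, the TGF-beta coreceptor endoglin, was at 36.2 and 36.7 CPM in controls and 70.1 and 67.1 CPM after depletion (log2 fold change 0.91, SE 0.10, adjusted p = 3.85e-07). Mmrn2, an extracellular matrix glycoprotein gene, was at 48.8 and 45.8 CPM in controls against 87.5 and 87.6 CPM after depletion (log2 fold change 0.89, SE 0.10, adjusted p = 3.85e-07). Robo4, an endothelial roundabout receptor gene, rose from 15.1 and 17.5 CPM to 30.8 and 29.3 CPM and the receptor gene Notch4 from 40.6 and 40.1 CPM to 63.5 and 68.4 CPM. Groups did not overlap in any of the 4 genes. Eng, Mmrn2 and Robo4 were also upregulated after Ubn2 depletion (log2 fold changes 1.303, 1.37 and 1.08) and after Hira depletion (1.35, 1.26 and 0.84), while Notch4 was lower after Ubn2 than after Ubn1 depletion (log2 difference -1.04, adjusted p = 2.18e-06).

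Among signals of the early embryo, the Nodal antagonists rose. Lefty2 (chromosome 1, 180893108 to 180899103), a secreted inhibitor of Nodal, was at 64.2 and 50.7 CPM in controls and 128 and 129.8 CPM after Ubn1 depletion (log2 fold change 1.17, SE 0.10, adjusted p = 3.07e-09). Its neighbour Lefty1 (chromosome 1, 180935022 to 180938400) was at 32.99 and 23.6 CPM in controls against 44.98 and 49.4 CPM after depletion (log2 fold change 0.75, SE 0.12, adjusted p = 0.000144). The groups did not overlap for either gene. The 2 genes have transcripts over 90% alike, so reads could be shared between them, and without Control replicate 2 the change of Lefty1 was 0.52 and no longer past 1.5-fold. Nodal itself was at 73.3 and 76.4 CPM in controls against 100.2 and 99.5 CPM after depletion (log2 fold change 0.42, SE 0.09, adjusted p = 0.00453), under the fold threshold. Of 22 tested Nodal and BMP pathway genes, 3 were called up and 0 down, the third being the BMP target Id3 (log2 fold change 0.72, SE 0.16, adjusted p = 0.00419), against a background of 1.53% up. Without Control replicate 1 Id3 was 0.48 and not called. DESeq2 called the same number up and 0 down, and 4 were lower at an unadjusted p under 0.05. The median of the list was 0.13, against -0.0024 over all genes tested.

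Of 23 tested primed epiblast and primitive streak genes, 4 were called up and 1 down. For this and the other lists of this paragraph, the background over all genes tested was 1.53% up and 1.56% down. Zic2, a zinc finger factor of the epiblast, was at 16.9 and 24.5 CPM in controls and 46.1 and 40.9 CPM after depletion (log2 fold change 1.06, SE 0.13, adjusted p = 1.97e-06). Otx2, which marks the transition out of naive pluripotency, was at 19.5 and 19.196 CPM in controls against 33.03 and 31.1 CPM after depletion (log2 fold change 0.73, SE 0.12, adjusted p = 0.000114). The other two genes called up were the Lefty genes. Lef1, a transcription factor of the Wnt pathway, was called down at 3.304 and 7.25 CPM in controls against 2.43 and 2.05 CPM after depletion (log2 fold change -1.27, SE 0.29, adjusted p = 0.00436), and its 2 controls differed by more than the gap between the lower control and the depleted libraries. Without Control replicate 2 it was -0.56 and not called. The list median was 0.02. Of 17 tested Wnt pathway targets, 3 were called up, namely Notum, Wnt6 and Tcf7l2, and 1 down, Lef1. Tcf7l2 was 0.80 without Control replicate 1 and 0.58 without Ubn1_KD replicate 1, not called in either case. Notum, a secreted inhibitor of Wnt, rose from 30.1 and 32.2 CPM to 57.9 and 54.7 CPM (log2 fold change 0.85, SE 0.11, adjusted p = 1.97e-06), and antisense genes overlap part of it. Among 30 pluripotency genes, 2 were called up and 1 down. Prdm14, a repressor that guards naive pluripotency, rose from 16.2 and 19.9 CPM to 28.98 and 28.6 CPM (log2 fold change 0.67, SE 0.13, adjusted p = 0.000739). Manba, which encodes a lysosomal mannosidase, rose from 133 and 118 CPM to 234 and 210.4 CPM (log2 fold change 0.82, SE 0.10, adjusted p = 7.72e-07). Socs3, the feedback inhibitor of LIF signalling, was called down at 335 and 225 CPM in controls against 174 and 189.6 CPM after depletion (log2 fold change -0.62, SE 0.12, adjusted p = 0.000643), with Control replicate 1 standing above the other 3 libraries. Without it Socs3 was -0.31, and Prdm14 0.53, neither called, and without Ubn1_KD replicate 1 Socs3 was -0.56 and under the fold threshold.

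Most tested genes of the two-cell embryo list were called up, from low levels. A small share of ESCs at any time is known to enter a state that resembles this stage, in which the Zscan4 family of SCAN and zinc finger genes is on. Of the 9 Zscan4 genes tested, 7 were called up after Ubn1 depletion, against a background of 1.53% up. The median log2 fold change was 1.64 over all 9, which includes the 2 low genes described below. Zscan4c was at 1.77 and 1.29 CPM in controls and 4.09 and 4.41 CPM after depletion (log2 fold change 1.498, SE 0.28, adjusted p = 0.000731). Zscan4f was at 0.862 and 0.676 CPM in controls against 3.55 and 3.25 CPM after depletion (log2 fold change 2.16, SE 0.34, adjusted p = 7.12e-05). Zscan4d was at 2.49 and 0.706 CPM in controls against 3.55 and 3.96 CPM after depletion (log2 fold change 1.33, SE 0.35, adjusted p = 0.01704), the groups separate but the controls far apart. Zscan4-ps3, which the annotation lists as protein coding despite its name, had the largest change of the family, from 0.6704 and 0.4300 CPM to 3.59 and 3.099 CPM (log2 fold change 2.64, SE 0.37, adjusted p = 1.25e-05). Zscan4b and Zscan4-ps1 were higher without passing the test (log2 fold changes 1.59 and 1.34, adjusted p = 0.125 and 0.167). In controls they were at 0.19 and 0.21 CPM and at 0.24 and 0.31 CPM. Genes this low pass the filter on counts more readily when they are on in 1 group, so the direction of these 2 genes is no result. Summed over the family, the level was 9.91 and 5.56 CPM in controls and 25.2 and 25.1 CPM after depletion. Each gene has transcripts at least 90% alike to those of the other 8, so the split of reads among them is uncertain. The 9 genes are therefore not separate measurements, and the number called is a description. The genes lie together on chromosome 7 between 10794242 and 11614112.

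Of 43 other two-cell stage genes, 12 had enough counts to be tested, and 9 of these were called up, against a background of 1.53% up over all genes tested. A gene at low level passes the filter on counts more readily when it is on in 1 group, so the share is not that of the whole list. Gm5662 was at 1.87 and 1.57 CPM in controls and 4.04 and 3.92 CPM after depletion (log2 fold change 1.22, SE 0.28, adjusted p = 0.00466), Gm21761 at 2.298 and 1.29 CPM in controls against 4.81 and 4.41 CPM after depletion (log2 fold change 1.403, SE 0.28, adjusted p = 0.00153), and Gm5039 at 0.718 and 0.307 CPM in controls against 2.34 and 2.54 CPM after depletion (log2 fold change 2.33, SE 0.42, adjusted p = 0.000431). Gm20767 was at 0.192 and 0.553 CPM in controls against 1.44 and 2.73 CPM after depletion (log2 fold change 2.38, SE 0.47, adjusted p = 0.00117), with the 2 depleted libraries well apart. The other five called up were Gm2016, Gm2022, Gm8300, Gm8994 and Tmem92, and all but Tmem92 have close copies. Of those not called, Calcoco2 had a log2 fold change of 0.41, Arg2 of -0.12 and Zfp930 of -0.40. On chromosome 12, between 87480108 and 88324026, all 8 genes tested were called up, among them Gm5662, Gm5039, Gm8300, Gm2016 and Gm2022. The stretch was drawn from its first to its last called gene. Several of its genes are close copies of each other, and the filter on counts favours genes that are on in 1 group. The count is therefore raised by the choice of the stretch and is no result about the region. Usp17lb, one of 4 tested genes of the Usp17l and Tdpoz families, was called up from 0.479 and 0.369 CPM to 1.66 and 1.27 CPM (log2 fold change 1.800, SE 0.47, adjusted p = 0.0157), against the same background. The limit of the filter also holds for Usp17lb and for the called genes of this paragraph with both controls under 1 CPM, among them Gm5039 and Gm20767. Their values are descriptions, and their shared direction is no result.

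The two-cell calls depended on single libraries. Of the 9 called among the other two-cell genes, the count became 6 without Control replicate 1, 3 without Control replicate 2, 6 without Ubn1_KD replicate 1 and 5 without Ubn1_KD replicate 2. The Zscan4 count was 4 without Control replicate 2 and 7 without each of the other 3 libraries. For single genes, Zscan4d was 0.59, Zscan4e 1.07, Zscan4-ps2 1.54, Gm5662 1.09 and Gm21761 0.9996 on the log2 scale without Control replicate 2, none of them called, and without Ubn1_KD replicate 2 Gm20767 was 1.83 and Gm8994 1.05, not called either. Usp17lb was not called without either control or without Ubn1_KD replicate 1 (1.596 to 1.971). DESeq2 called 2 and 2, and gave no adjusted p for 4 and 7 of the called genes. Of 27 tested regulators known to act on the two-cell-like state, edgeR and DESeq2 called 0, with 3 higher and 8 lower at an unadjusted p under 0.05. Lin28a, an RNA-binding protein gene, had a log2 fold change of -0.39 (adjusted p = 0.00689) and the deacetylase gene Hdac2 of -0.33 (adjusted p = 0.0247). Against Ubn1 depletion, 7 of the 9 Zscan4 genes were higher after Ubn2 depletion and 1 was higher after Hira depletion, where 4.61% of 18205 genes were higher after Ubn2 and 9.52% of 18819 after Hira depletion. Zscan4c was higher by 1.09 on the log2 scale after Ubn2 depletion (adjusted p = 0.00515) and by 0.52 after Hira depletion (adjusted p = 0.107).

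**Figure D2:**
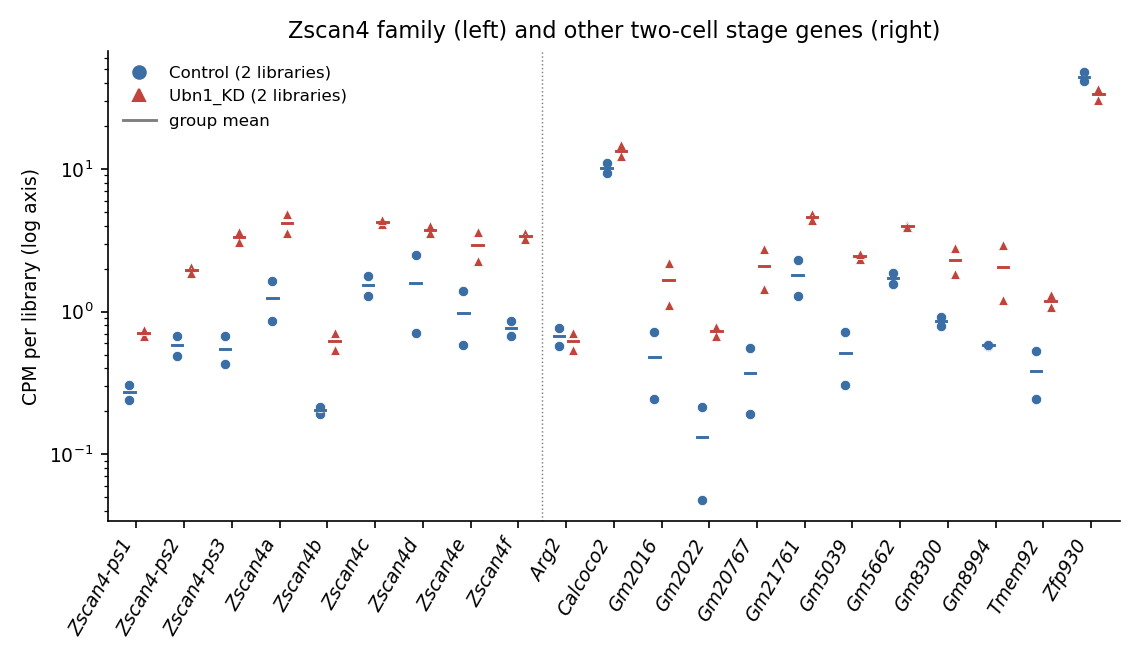
CPM per library on a log axis for the 21 tested two-cell genes, with Control libraries as blue circles, Ubn1_KD libraries as red triangles and the group means as bars. The red triangles lie above the blue circles for all 9 Zscan4 genes and for 10 of the 12 other genes, and Zfp930 and Arg2 are the exceptions.

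On the downregulated side, Slc11a1 had the smallest adjusted p of all genes. Slc11a1 (chromosome 1, 74375195 to 74386062), which encodes a divalent metal transporter, was at 56.98 and 66.4 CPM in controls and 14.6 and 18.5 CPM after Ubn1 depletion (log2 fold change -1.89, SE 0.12, adjusted p = 3.03e-12), a 3.71-fold fall. The neighbouring gene Catip (chromosome 1, 74362108 to 74369321), a regulator of ciliary actin, was at 32.5 and 39.8 CPM in controls against 12.5 and 15.05 CPM after depletion (log2 fold change -1.39, SE 0.13, adjusted p = 1.44e-08). For both genes the depleted libraries lay far under both controls. Both were higher in the other depletions than after Ubn1 depletion, Slc11a1 by 0.86 on the log2 scale after Ubn2 (adjusted p = 0.000232) and by 0.63 after Hira depletion (adjusted p = 0.00131), and Catip by 0.81 and 0.69 (adjusted p = 0.000915 and 0.001102). Each difference was smaller than that gene's fall against control after Ubn1 depletion. The direct tests thus describe a weaker fall in the other depletions and not a rise. Suclg2, a subunit gene of the mitochondrial succinyl-CoA ligase, was at 106 and 118 CPM in controls against 61.4 and 63.5 CPM after depletion (log2 fold change -0.84, SE 0.10, adjusted p = 5.39e-07). Gldc, the glycine decarboxylase gene, named after its values were seen, was at 140.3 and 155 CPM in controls against 77.2 and 90.3 CPM after depletion (log2 fold change -0.82, SE 0.10, adjusted p = 1.06e-06).

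Many genes of the amino acid stress response fell. ATF4 is the transcription factor that switches on amino acid synthesis, transport and stress genes when amino acids run short or the endoplasmic reticulum is stressed, and it often binds the composite C/EBP-ATF element in promoters. Of 31 tested genes of the list, 27 were lower, 12 were called down and 0 up, against a background of 1.56% down, and the median log2 fold change was -0.54. At the adjusted p alone, 20 were lower. For the count of 0 up, DESeq2 also called 0, with 2 higher at an unadjusted p under 0.05. The list count was 10 to 15 with single libraries left out, and 11 in DESeq2.

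In serine and cysteine synthesis, Phgdh, which encodes the first enzyme of serine synthesis, was at 232 and 236 CPM in controls and 121 and 138 CPM after depletion (log2 fold change -0.85, SE 0.09, adjusted p = 3.85e-07). Psat1, the next enzyme of that pathway, was at 336 and 364 CPM in controls against 188 and 206 CPM after depletion (log2 fold change -0.83, SE 0.09, adjusted p = 3.89e-07). Cth, cystathionine gamma-lyase, which makes cysteine, was at 96.9 and 97.9 CPM in controls against 45.02 and 44.5 CPM after depletion (log2 fold change -1.12, SE 0.10, adjusted p = 2.36e-09). The groups were separate for all 3 genes, with replicates close together. The mitochondrial folate genes Mthfd2 and Aldh1l2 were also called down (log2 fold changes -0.65 and -0.86), as was the glycine transporter gene Slc6a9 (-0.74), which genes on the opposite strand overlap. Phgdh has several pseudogene copies with like sequence.

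Among stress effectors, Chac1, a glutathione-degrading enzyme gene, was at 15.1 and 18.3 CPM in controls and 5.48 and 6.796 CPM after depletion (log2 fold change -1.44, SE 0.17, adjusted p = 7.97e-07). Nupr1, a stress-induced nuclear protein gene, was at 30.4 and 24.02 CPM in controls against 11.3 and 13.3 CPM after depletion (log2 fold change -1.14, SE 0.14, adjusted p = 1.79e-06). Ddit3, which encodes CHOP, was at 34.6 and 28.3 CPM in controls against 14.8 and 19.9 CPM after depletion (log2 fold change -0.85, SE 0.14, adjusted p = 8.94e-05), and the pseudokinase gene Trib3 at 35.05 and 34.1 CPM in controls against 19.3 and 22.5 CPM after depletion (log2 fold change -0.72, SE 0.12, adjusted p = 0.000132). Ddit4, an inhibitor of mTORC1 signalling, and the lipoprotein receptor gene Vldlr completed the 12 (log2 fold changes -0.72 and -0.87). Without Ubn1_KD replicate 1 Ddit4 was -0.47 and not called. Atf4 itself was at 316 and 295 CPM in controls against 255 and 262 CPM after depletion (log2 fold change -0.24, SE 0.09, adjusted p = 0.103), both depleted libraries under both controls but the change not past the test. Asns, the asparagine synthetase gene, had a log2 fold change of -0.44 (adjusted p = 0.00182), under the fold threshold. The cystine transporter gene Slc7a11 was higher, at 2.78 and 2.76 CPM in controls against 3.24 and 5.34 CPM after depletion (adjusted p = 0.134), without passing the test. Members of this paragraph and the last other than Phgdh, Psat1, Cth, Chac1, Nupr1 and Ddit4 were named after their values were seen.

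The following promoter stretches show the element beside 3 of the genes that fell. They were read from RefSeq promoters of GRCm38.p6 in the direction of the gene, 40 bases on each side of a match to TGATGNAA on either strand, and capitals mark the match.
Chac1, chr2:119351009-119351096, plus strand: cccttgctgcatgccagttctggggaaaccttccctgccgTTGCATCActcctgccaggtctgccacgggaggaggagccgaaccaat
Nupr1, chr7:126625533-126625620, minus strand: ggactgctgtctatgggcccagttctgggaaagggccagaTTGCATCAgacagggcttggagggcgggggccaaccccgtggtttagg
Vldlr, chr19:27216780-27216867, plus strand: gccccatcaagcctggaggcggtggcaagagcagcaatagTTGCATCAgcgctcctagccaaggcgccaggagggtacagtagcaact
The same 8 letters stood in the promoter windows of 8 of the 24 tested list genes with a RefSeq promoter entry, including 4 of the 10 called down. They stood in 3.97% of 32851 promoter windows of 250 bases before to 50 after a start site. The first count is of genes and the share is of windows, and a gene may have several windows, so they are not like measures. The fourth was Trib3, whose match lay after its start site. The match also stood before the start sites of Asns, Atf3, Pycr1 and Slc7a11, of which none was called. A match is a description of the letters and not evidence of binding.

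Several genes of cholesterol synthesis fell as well. Their transcription is known to be driven by the SREBP2 factor when sterols in the endoplasmic reticulum are low. Of 33 tested genes of cholesterol and fatty acid synthesis, 26 were lower, 8 were called down and 0 up, against a background of 1.56% down. The median log2 fold change was -0.40. At the adjusted p alone, 17 were lower. DESeq2 called 7 down and 0 up, 0 were higher at an unadjusted p under 0.05, and with single libraries left out 6 to 11 were called down. Msmo1, a sterol demethylation enzyme gene, was at 107 and 95.3 CPM in controls and 44.5 and 43.2 CPM after depletion (log2 fold change -1.205, SE 0.10, adjusted p = 9.64e-10). Cyp51, lanosterol 14-alpha-demethylase, was at 72.01 and 68.3 CPM in controls against 37.6 and 37.5 CPM after depletion (log2 fold change -0.90, SE 0.10, adjusted p = 4.02e-07). Hmgcs1, which makes HMG-CoA, was at 225 and 219 CPM in controls against 139 and 138 CPM after depletion (log2 fold change -0.68, SE 0.09, adjusted p = 7.21e-06). Insig1, the sterol sensor that retains SREBP, was at 129.9 and 119 CPM in controls against 69.1 and 78.4 CPM after depletion (log2 fold change -0.75, SE 0.10, adjusted p = 3.78e-06), and Dhcr7, the last enzyme of one branch, at 87.05 and 85.7 CPM in controls against 50.01 and 58.2 CPM after depletion (log2 fold change -0.67, SE 0.10, adjusted p = 3.49e-05). All 5 genes had both depleted libraries under both controls, and Dhcr7 fell short of 1.5-fold without Ubn1_KD replicate 1 (-0.57).

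Idi1, Sqle and Hsd17b7 were the other called genes (log2 fold changes -0.85, -0.59 and -0.59). The fatty acid synthase gene Fasn had a log2 fold change of 0.03 (adjusted p = 0.875). These 4 genes were named after their values were seen. Against Ubn1 depletion, 0 of the 33 genes were higher and 3 lower after Ubn2 depletion, where 4.09% of all genes were lower, and 4 were higher and 1 lower after Hira depletion, where 9.52% of all genes were higher and 3.16% lower. Insig1 differed by -0.76 on the log2 scale after Ubn2 depletion (adjusted p = 5.05e-05) and by 0.68 after Hira depletion (adjusted p = 1.37e-05). The sterol regulatory element TCACNCCAC stood in the promoter window of 1 of 22 list genes with an entry, Hmgcs1, and in 1.24% of all windows, both strands searched. Here too genes are set beside windows, of which a gene may have several. The element is shown in capitals in 40 bases on each side of the match.
Hmgcs1, chr13:119690174-119690262, plus strand: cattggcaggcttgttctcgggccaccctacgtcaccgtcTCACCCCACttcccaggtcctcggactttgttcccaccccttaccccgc

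**Figure D3:**
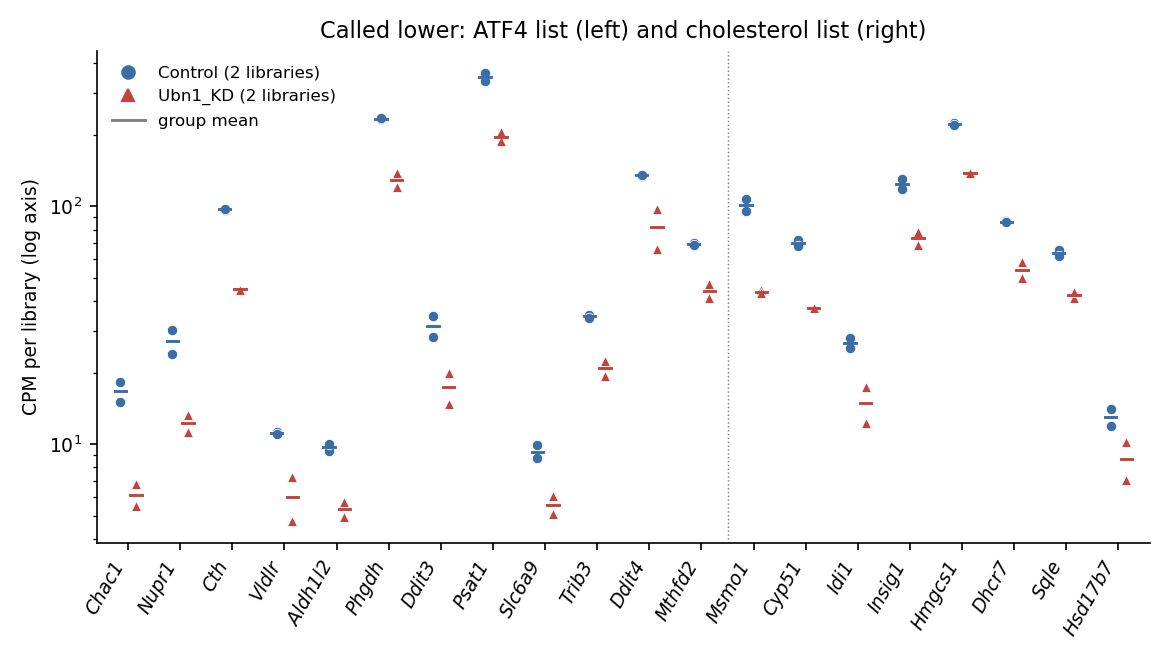
CPM per library on a log axis for the 12 genes of the ATF4 list and the 8 of the cholesterol list that were called lower, ordered by log2 fold change within each list. Blue circles are Control and red triangles Ubn1_KD libraries, with bars at the means, and the triangles lie below the circles for every gene shown. The genes were drawn because they were called lower, so this separation is no result.

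Of 30 tested targets of the hypoxia-inducible factors, 25 were lower, 8 were called down and 0 up, against a background of 1.56% down. The median log2 fold change was -0.23. DESeq2 called 6 down and 0 up, and 3 were higher at an unadjusted p under 0.05. Bnip3, a mitophagy receptor gene, was at 178 and 204 CPM in controls and 108 and 113 CPM after depletion (log2 fold change -0.79, SE 0.09, adjusted p = 1.08e-06). Egln3, a prolyl hydroxylase gene of the oxygen sensing pathway, was at 41.5 and 51.1 CPM in controls against 27.7 and 27.6 CPM after depletion (log2 fold change -0.75, SE 0.11, adjusted p = 5.03e-05). Bhlhe40, a transcriptional repressor gene, was at 63.4 and 36.3 CPM in controls against 23.3 and 26.6 CPM after depletion (log2 fold change -0.99, SE 0.15, adjusted p = 5.78e-05), with Control replicate 1 high, and without that library its change was -0.54 and not called. Fam162a, Ndrg1, Ankrd37 and Stc2 were also called, and Ddit4 is shared with the ATF4 list. The glycolytic enzymes were not called in the fit of all 4 libraries. Of 28 glycolysis and pentose phosphate genes, 23 were lower with a median of -0.11, edgeR and DESeq2 called 0, and 0 were higher and 7 lower at an unadjusted p under 0.05. Without Ubn1_KD replicate 2, 3 were called down, and 1 without Control replicate 2 and 1 with the replicate block. Pgk1 was at 2059.6 and 1887 CPM in controls against 1246 and 1412 CPM after depletion (log2 fold change -0.57, SE 0.10, adjusted p = 0.000166) and Pfkp at 957 and 1004 CPM in controls against 663 and 776 CPM after depletion (log2 fold change -0.45, SE 0.10, adjusted p = 0.00284). Both were lower after Ubn2 than after Ubn1 depletion (log2 differences -0.94 and -0.87, adjusted p = 1.48e-05 and 2.08e-05).

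**Figure D4:**
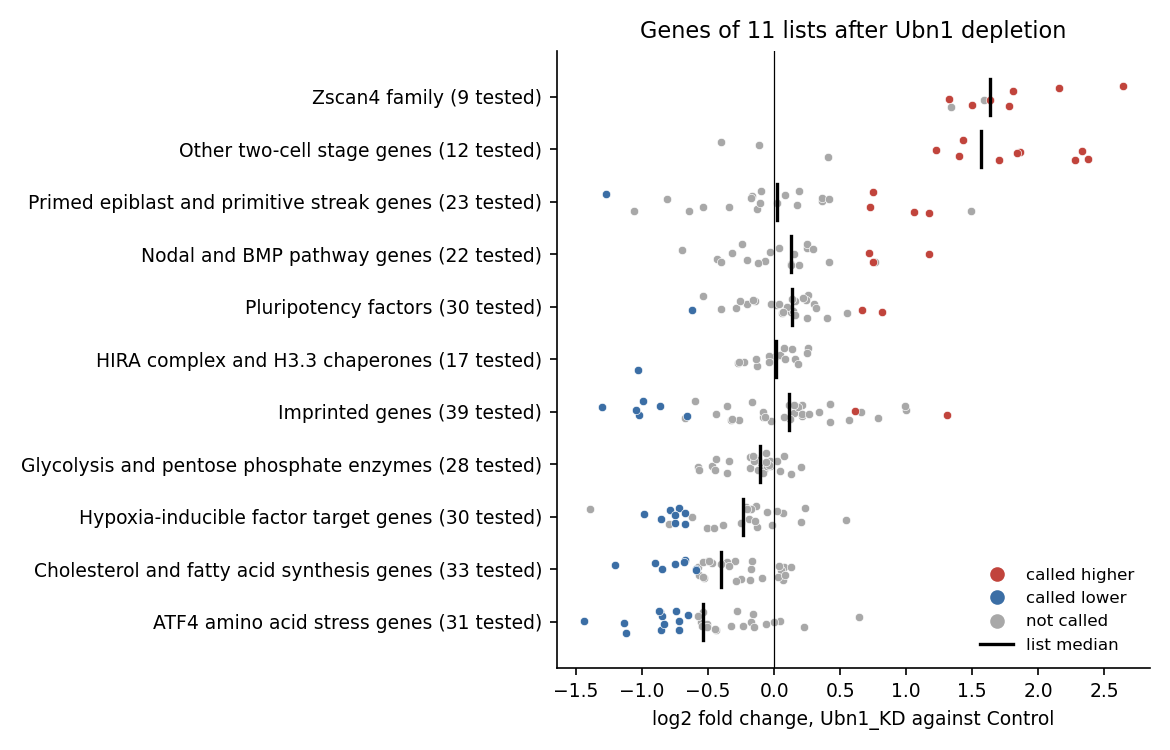
Log2 fold change of Ubn1_KD against Control for every tested gene of 11 lists, 1 point a gene, with called genes in red (higher) or blue (lower) and the list median as a black bar. The medians run from 1.64 in the Zscan4 family to -0.54 in the ATF4 list.

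Imprinted genes, expressed from one parental copy, were called mostly on distal chromosome 7. Of 39 tested, 6 were called down and 2 up, against a background of 1.56% down and 1.53% up, with a median of 0.11. H19 (chromosome 7, 142575529 to 142578143), a long noncoding RNA that hosts Mir675, was at 33.1 and 31.2 CPM in controls and 14.4 and 16.7 CPM after Ubn1 depletion (log2 fold change -1.05, SE 0.12, adjusted p = 1.04e-06). Cdkn1c (chromosome 7, 143458339 to 143461050), an inhibitor of the cell cycle, was at 16.3 and 20.02 CPM in controls against 8.22 and 9.67 CPM after depletion (log2 fold change -1.02, SE 0.16, adjusted p = 4.63e-05). Phlda2, a placental growth suppressor gene, was at 20.9 and 20.7 CPM in controls against 10.2 and 10.8 CPM after depletion (log2 fold change -0.99, SE 0.14, adjusted p = 1.78e-05), and the antisense RNA Kcnq1ot1, which controls the imprinting of that domain, at 21.02 and 16.03 CPM in controls against 10.1 and 10.1 CPM after depletion (log2 fold change -0.87, SE 0.15, adjusted p = 0.000366). The groups did not overlap for these 4 genes. Ascl2, a trophoblast factor gene, had a log2 fold change of -1.304 (adjusted p = 0.00712) with controls at 2.97 and 6.08 CPM, and without Control replicate 2 it was -0.67 and not called.

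Between 142575529 and 143848410 on chromosome 7, 11 of 26 tested genes were called down, and 20 of the 26 were lower. The stretch was drawn from its first to its last called gene, so both counts are raised by that choice. Over all genes tested, 1.56% were called down. Some of these 11 are annotations over H19 or Cdkn1c that share their reads, and Dhcr7 lies at the end of the stretch. Igf2, the growth factor gene next to H19, was low at 1.92 and 2.21 CPM in controls against 1.89 and 0.896 CPM after depletion (adjusted p = 0.3398). Grb10, an imprinted adaptor gene on chromosome 11, was called down at 13.6 and 16.1 CPM in controls against 9.26 and 9.596 CPM after depletion (log2 fold change -0.66, SE 0.16, adjusted p = 0.007202). Dio3 and Peg13 were the 2 called up (log2 fold changes 1.31 and 0.61), and DESeq2 called neither and gave no adjusted p for 1 of them. Of the imprinted genes, 1 was called up without Control replicate 1, 0 without Control replicate 2 and 0 without Ubn1_KD replicate 1. Meg3, on the same chromosome as Dio3, had a log2 fold change of 0.18 (adjusted p = 0.243). Igf2, Grb10, Dio3, Peg13 and Meg3 were named after their values were seen.

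A few calls lay among genes of epithelial junctions and of lineage entry, where the background over all genes tested was 1.53% up and 1.56% down. Of 27 tested epithelial to mesenchymal transition genes, 3 were called down, all of them epithelial, and 0 up. Cldn6 and Cldn7, claudin genes of tight junctions, were at 11.1 and 12.3 CPM in controls against 4.09 and 5.003 CPM after depletion (log2 fold change -1.36, SE 0.19, adjusted p = 9.17e-06) and at 3.54 and 3.16 CPM in controls against 1.08 and 1.53 CPM after depletion (log2 fold change -1.34, SE 0.31, adjusted p = 0.00543). Esrp1, an epithelial splicing factor gene, was at 2.15 and 2.36 CPM in controls against 0.899 and 0.971 CPM after depletion (log2 fold change -1.27, SE 0.35, adjusted p = 0.0228) and was not called without Control replicate 1 (-1.33) or Control replicate 2 (-1.20). DESeq2 called 1 of the list down and 0 up, gave no adjusted p for the other two, and 6 were higher at an unadjusted p under 0.05. Of 21 tested primitive endoderm genes, 2 were called down and 0 up, the factor gene Gata6 at 3.78 and 2.92 CPM in controls against 1.35 and 1.72 CPM after depletion (log2 fold change -1.104, SE 0.30, adjusted p = 0.02004) and the receptor gene Pdgfra at 4.79 and 4.24 CPM in controls against 2.61 and 2.58 CPM after depletion (log2 fold change -0.79, SE 0.25, adjusted p = 0.0433). DESeq2 called neither and gave no adjusted p for 1 of them. At the adjusted p alone, 3 genes of the list were higher and 3 lower, so the list was split. The 3 higher were Col4a1, Col4a2 and Hnf4a (log2 fold changes 0.52, 0.50 and 0.57), all under the fold threshold. At an unadjusted p under 0.05, 3 were higher. Gata6 was -0.92 without Control replicate 1 and -0.95 without Ubn1_KD replicate 1, and Pdgfra -0.89 to -0.71 without any 1 library, none of them called.

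Of 24 tested neuronal and neural progenitor genes, 2 were called up and 2 down, 8.33% in each direction. Over all genes tested, 1.53% were called up and 1.56% down. Tubb3, a neuronal tubulin gene, rose from 85.04 and 89.3 CPM to 124 and 144 CPM (log2 fold change 0.62, SE 0.10, adjusted p = 5.92e-05) and the progenitor factor gene Sox21 from 2.203 and 2.49 CPM to 5.66 and 5.41 CPM (log2 fold change 1.23, SE 0.24, adjusted p = 0.00112). Dll1, a Notch ligand gene, fell from 4.597 and 4.08 CPM to 2.07 and 1.83 CPM (log2 fold change -1.15, SE 0.26, adjusted p = 0.00534) and Neurod1, a proneural factor gene, from 5.12 and 7.65 CPM to 2.65 and 4.03 CPM (log2 fold change -0.94, SE 0.24, adjusted p = 0.0129). Tubb3 was 0.50 without Ubn1_KD replicate 2, Dll1 -1.07 without Control replicate 1, and Neurod1 -0.61 without Control replicate 2 and -0.68 without Ubn1_KD replicate 1, none of them called. Among 47 axon guidance genes, the Slit ligand gene Slit3 was called up (log2 fold change 1.03, SE 0.19, adjusted p = 0.000582), and the receptor genes Unc5a (log2 fold change -1.34, SE 0.29, adjusted p = 0.00299) and Epha8 (log2 fold change -2.14, SE 0.44, adjusted p = 0.00203) were called down. These are 2.13% up and 4.26% down, and calls this few near the share over all genes are no result about the list. Of 36 tested germline genes, 4 were called down and 1 up, which is 11.1% and 2.78%, against a background of 1.56% down and 1.53% up. Mael, a piRNA pathway gene, was at 11.1 and 12.01 CPM in controls against 3.77 and 5.71 CPM after depletion (log2 fold change -1.28, SE 0.19, adjusted p = 4.78e-05), and Meioc, a regulator of meiotic entry, at 54.4 and 54.2 CPM in controls against 33.7 and 32.3 CPM after depletion (log2 fold change -0.72, SE 0.10, adjusted p = 2.60e-05). The others were Smc1b and Piwil4 (log2 fold changes -0.61 and -0.78), which were -0.50 without Control replicate 1 and -0.74 without Control replicate 2 and not called there, while Tex19.1, which restrains retrotransposons in germ cells, was called up from 52.00 and 43.6 CPM to 83.6 and 83.5 CPM (log2 fold change 0.81, SE 0.10, adjusted p = 2.75e-06).

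Other developmental lists showed no called gene. Most Pcdhg genes had almost the same counts as each other, so the protocadherins are not separate measurements. For 37 tested clustered protocadherins, the median log2 fold change was 0.09, and 1 was higher and 0 lower at an unadjusted p under 0.05. For 10 Hox genes, 0 were higher and 2 lower at that p, for 13 heart and skeletal muscle genes 1 and 2, for 28 collagen and laminin genes 5 and 1, for 10 subunits of Polycomb repressive complex 2 2 and 2, for 15 DNA methylation and demethylation enzymes 0 and 1, and for 50 DNA repair genes 6 and 8. edgeR and DESeq2 called 0 in each of these lists. In the p53 list, Perp, a desmosome gene, and Trp73, a p53 homolog, were the 2 of 30 called up (log2 fold change 0.69, SE 0.14, adjusted p = 0.00155 and log2 fold change 0.68, SE 0.17, adjusted p = 0.0128), and 0 were lower at an unadjusted p under 0.05 or called down by DESeq2. Perp was 0.58 without Control replicate 2 and Trp73 0.56 without Control replicate 1, neither called. Over all genes tested, 1.53% were called up.

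The remaining lists held few calls, where the background over all genes tested was 1.53% up and 1.56% down. Of 16 tested trophoblast genes, 1 was called down, Ascl2, and 0 up. Of 39 tested histone genes 2 were called down, Hist2h2be and Hist1h3h, the latter with close copies. Of 47 tested genes of the potassium channel list 2 were called down, Kcnt2 and Kcnq1ot1. Kcnq1ot1 is the antisense RNA described above and not a channel gene, so Kcnt2 was the only channel gene called. Of 27 FGF and ERK pathway genes 1 was called down, Ier3, an immediate early gene at 24.99 and 12.4 CPM in controls and 6.52 and 7.84 CPM after depletion (log2 fold change -1.36, SE 0.21, adjusted p = 4.98e-05). In each of these lists 0 were called up. At an unadjusted p under 0.05, 0, 2, 2 and 5 genes of these 4 lists were higher, and DESeq2 called 0 up. On the lower side DESeq2 called 0 trophoblast, 0 histone and 0 FGF and ERK pathway genes, and 1 gene of the potassium channel list, Kcnq1ot1. Without Control replicate 2, Ascl2 was -0.67, Hist2h2be -1.19 and Kcnt2 -1.45 on the log2 scale, none of them called. Without Control replicate 1, Hist1h3h was -2.78 and Kcnt2 -1.19, neither called. Of 22 tested cadherins 1 was called up, of 39 ESC-enriched long noncoding RNAs 2 up, Platr15 and Platr23, and of 22 interferon response and antigen presentation genes 2 up, Xaf1 (log2 fold change 0.71, SE 0.12, adjusted p = 0.000126) and Samd9l, with 0 called down in each. At an unadjusted p under 0.05, 3 genes of each were lower, and DESeq2 called 0 down. Platr23 (0.54 to 0.95) and Samd9l (0.71 to 1.61) were not called without either control or without Ubn1_KD replicate 1, and Xaf1 was 0.54 and not called without Control replicate 2.

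The 3 depletions were compared directly to see where Ubn1 depletion differed. These tests use the Ubn1_KD libraries that also chose the called genes, and the comparisons with control share both control libraries, so the counts are descriptions. Of the 282 upregulated genes, 281 could be tested against Ubn2 depletion, and 58 were higher after Ubn2, 29 lower and 194 not called, where 4.61% of all genes tested were higher and 4.09% lower. Against Hira depletion, 31 of 282 were higher, 42 lower and 209 not called, where 9.52% of all genes were higher and 3.16% lower, so that the count of higher genes lay near the share over all genes. Of the 286 downregulated genes, 39 of 269 tested were higher after Ubn2 and 45 lower, and 115 of 277 tested were higher after Hira and 3 lower. The median log2 fold change of the upregulated genes was 0.84 after Ubn1, 1.04 after Ubn2 and 0.80 after Hira depletion, and that of the downregulated genes -0.86, -0.94 and -0.38.

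A small set differed from both other depletions. Of the upregulated genes, 10 were not upregulated after Ubn2 or Hira depletion and were lower in both direct tests. The direct tests chose these genes, so their direct adjusted p-values passed the threshold by selection and are descriptions. Lefty2 had log2 fold changes of 1.17 after Ubn1, -0.30 after Ubn2 and -0.43 after Hira depletion, and differed by -1.48 and -1.58 in the direct tests (adjusted p = 7.62e-08 and 3.06e-11). Lefty1 had 0.75, -0.17 and -0.21. Islr2, a gene of an axonal receptor-associated protein, was at 20.3 and 25.2 CPM in controls and 44.1 and 47.01 CPM after Ubn1 depletion, with log2 fold changes of 0.99, -0.41 and 0.25. Ngfr, a neurotrophin receptor gene, was at 22.3 and 22.5 CPM in controls against 38.9 and 39.6 CPM after depletion, with 0.81, 0.13 and -0.09. Platr15, an ESC long noncoding RNA, was at 0.383 and 0.553 CPM in controls against 3.100 and 2.61 CPM after depletion, with 2.55, -0.26 and 0.75.

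Of the downregulated genes, 29 met the mirrored rule, and their direct adjusted p-values likewise passed by selection. Ubn1 is one of them by design. H19 fell after Ubn1 depletion but rose after Ubn2 depletion (log2 fold changes -1.05 and 1.23), and was 0.47 after Hira depletion, with direct differences of 2.27 and 1.54 (adjusted p = 1.47e-09 and 9.61e-10). Cdkn1c had -1.02, -0.35 and 0.46. Emb, a monocarboxylate transporter chaperone gene, was at 63.6 and 70.3 CPM in controls and 37.9 and 40.7 CPM after Ubn1 depletion, with log2 fold changes of -0.77, 0.14 and 0.30 and direct differences of 0.91 and 1.09 (adjusted p = 5.86e-06 and 1.61e-08). Spink10, a protease inhibitor gene, fell from 3.06 and 3.38 CPM to 0.764 and 0.299 CPM, with -2.64, 0.23 and -0.20. The rRNA-type genes CT010467.1, Gm42418, AY036118 and Gm23935 and Lars2 also met the rule, and their control values differed as given above.

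**Figure D5:**
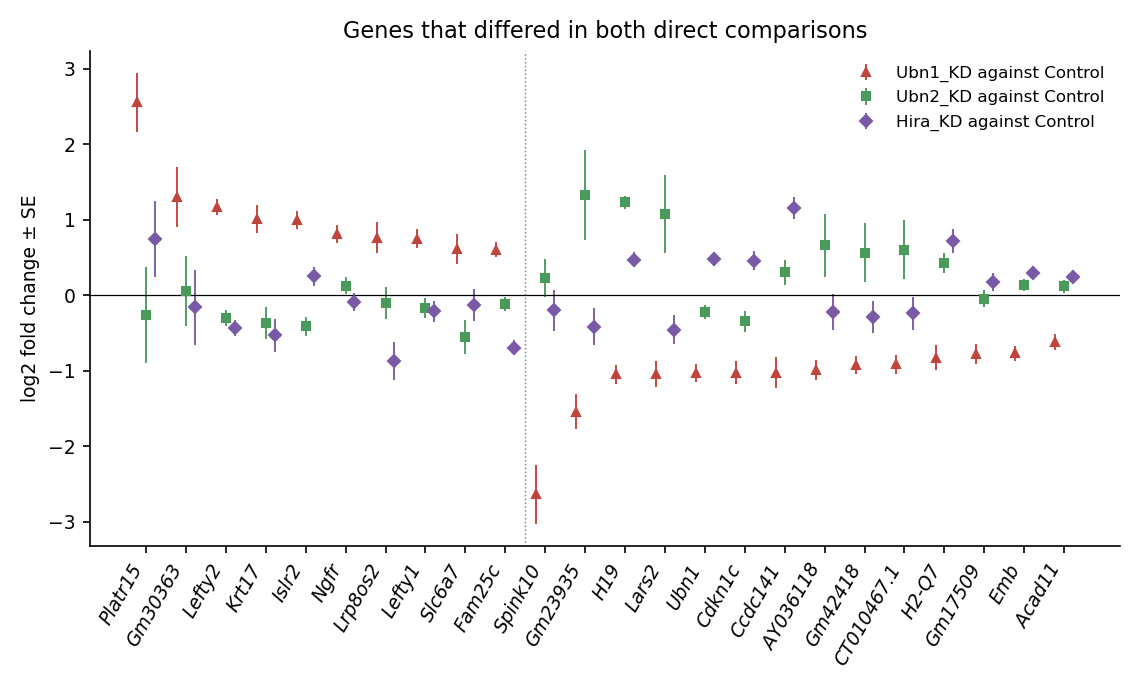
Log2 fold change against the shared control libraries, with its standard error, after Ubn1 (red), Ubn2 (green) and Hira (purple) depletion for the 10 upregulated genes (left of the dotted line) and the 14 downregulated genes with the smallest adjusted p (right) that differed from Ubn1 depletion in both direct tests. The red points lie apart from the other two by the choice of genes, and Ubn1, H19 and Emb are among those on the right.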

How the data were processed

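RNA-seq was made from 8 libraries of E14 ESCs, 2 in each of 4 groups, and the 4 of the control and Ubn1_KD groups were used for the main comparison. Groups and replicate numbers came from the sample titles. Per the study's methods and the submitters' processing notes, the authors used Trim Galore for trimming, STAR for alignment to GRCm38 and featureCounts for counts per gene. The deposited values are raw counts per gene, not normalized and not pooled. Tool versions, the strand setting and the treatment of reads with several matches are not given in the sources used here, so genes with close copies or overlapping exons are uncertain.

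Counts were filtered with edgeR's filterByExpr, scaled by TMM and tested with edgeR's quasi-likelihood test (edgeR 4.0.16, R 4.3.3), Benjamini-Hochberg adjusted over all genes tested. Calls needed an adjusted p under 0.05 together with a change over 1.5-fold. The direct tests against Ubn2 and Hira depletion were fitted the same way. With 2 libraries against 2, an exact permutation test of a single gene cannot go below 0.333 (two-sided). The alternatives were DESeq2 1.42.0, its size factors, 2 other filters, a fit of all 8 libraries, a replicate block, the adjusted p alone and each library left out. The fits were tested on simulated data first. Positions came from GENCODE M21 and promoters from RefSeq, both of GRCm38, and close copies were transcripts at least 90% alike over 50% of their length in blastn 2.17.0+.

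The comparison and the 39 gene lists were chosen with earlier results of these data known. Named genes were the HIRA complex and Zscan4 genes, the called genes with the smallest adjusted p or the largest change overall (at 1 CPM or more, and at 20 CPM or more), those that differed from both other depletions, and up to 5 called members of each list. Markers, pathway members and neighbours named beyond this rule, such as Nodal, Pou5f1, Ddit3 and Lars2, were chosen after their values were seen. Values of some list members are not reported here.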

Additional observations from a re-analysis of the deposited data

How the results depend on the processing

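The 282 upregulated and 286 downregulated genes became 159 and 136 in DESeq2's Wald test and 760 and 666 at the adjusted p alone. Leaving out 1 library gave 172 to 319 and 178 to 374. The fold change of Ubn1 stayed between -1.16 and -0.888 with 1 library left out. Genes higher and lower after Ubn2 than after Ubn1 depletion, 840 and 744, became 538 and 484 in DESeq2, 1566 and 1453 at the adjusted p alone, and 628 to 1018 and 554 to 981 with 1 library left out. Those higher and lower after Hira depletion, 1791 and 595, were 1073 in DESeq2 for the higher genes and 1917 at the adjusted p alone for the lower ones, with 1284 to 1622 and 544 to 758 with 1 library left out. With the replicate block the counts were 357 and 376 after Ubn1 depletion, 966 and 834 against Ubn2 and 1666 and 562 against Hira depletion, and the Ubn1 change was -1.02. The replicate number pairs nothing that the labels state, and deviations of same-numbered libraries correlated at 0.0289. Other scalings, filters and the fit of all 8 libraries kept these counts within 1.5 times, and the median log2 fold change of all genes, -0.00241, was -0.00705 with DESeq2's size factors and -0.00877 in DESeq2. Of the 95 called genes named by rule, all kept their direction and 56 their call in every alternative that gave a value. With 2 libraries a group and 3 counts at 0.0917 to 0.142 CPM, small changes of low genes were not detectable. The cause of the differences between settings was not tested.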

Other observations

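Some called genes lie side by side on a chromosome in groups not described above, found as 3 or more genes called in 1 direction with gaps under 500000 bases, and named after their values were seen. The keratin genes Krt14, Krt17 and Krt42 and the plakoglobin gene Jup were called up between 100203162 and 100397763 on chromosome 11, where 9 genes were tested. Krt17, a cytoskeletal keratin gene, was at 6.61 and 5.07 CPM in controls and 11.4 and 11.9 CPM after depletion (log2 fold change 1.01, SE 0.18, adjusted p = 0.000445, edgeR's quasi-likelihood test). The metallothionein genes Mt1 and Mt2, whose proteins bind zinc and copper, were among 4 called up of 9 tested between 94170748 and 94570531 on chromosome 8. Mt1 was at 159 and 166 CPM in controls and 220.1 and 269.5 CPM after depletion (log2 fold change 0.59, SE 0.10, adjusted p = 0.000135), and Mt2 at 215 and 222 CPM in controls against 341 and 373 CPM after depletion (log2 fold change 0.71, SE 0.09, adjusted p = 4.34e-06). On chromosome 14, Fam25c, Sncg and Mmrn2, the 3 genes tested between 34351881 and 34404287, were all called up. Of 16 tested mitochondrial tRNA genes 3 were called down, mt-Ta, mt-Tn and mt-Tt, which is 18.8% against 1.56% of all genes. Each group runs from its first to its last called gene, so the shares within it are raised by that choice. Whether neighbouring calls are linked was not tested.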
